A study of Mus musculus with 4 samples.

Results

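The Toll-like receptors are innate immune receptors, and here they were followed as transcripts in cultured mouse muscle precursor cells with and without Tet2. The members were the 10 rows of the deposited expression table whose gene symbol was Tlr1, Tlr2, Tlr3, Tlr4, Tlr5, Tlr6, Tlr7, Tlr8, Tlr9 or Tlr13, out of 24445 genes. The mouse receptors Tlr11 and Tlr12 were left outside the set and had at most 0.126 FPKM in either group.

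Tet2 oxidises 5-methylcytosine in DNA, and the study asked how its loss affects muscle regeneration and myoblast differentiation. RNA was sequenced from 4 libraries, 2 labelled WT and 2 labelled Tet2 KO, all from the strain C57BL/6. Muscle stem cells (satellite cells) were, by the labels, sorted from hindlimb muscle as PI-, CD45-, CD11b-, CD31-, Sca1-, CD34+ and Integrin a7+ cells, and were cultured on collagen in a proliferation medium for 3 days or longer, at which point they were MyoD+ myoblasts. The study's methods name the TA muscle instead. The knockout was constitutive, so every cell type of the donor animals lacked exon 3 of Tet2, and the labels do not say whether the libraries of a group came from separate animals.

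Each gene had 1 FPKM value per group (fragments per kilobase of transcript and per 1000000 fragments), which is the authors' pooled estimate over the 2 libraries of the group. No value per library was used here and the authors' own test columns were set aside, so no spread between replicates stands beside a value and no order of levels or difference between the groups was set against replicate error. All differences below are descriptions of 2 pooled values. A log2 ratio is that of Tet2 KO over WT after adding 0.1 FPKM to each, which understates the difference of genes with low values, and a plain ratio has nothing added. A gene was counted as higher or lower when its log2 ratio was at least 2-fold, among genes with a mean of at least 0.5 FPKM. The members and the gene lists below were chosen with earlier results of these data known. Their counts beside the shares of all genes are therefore descriptions and no independent comparison.

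Each Toll-like receptor binds its ligand through leucine-rich repeats and signals through a cytoplasmic TIR domain. Receptors of the cell surface sense microbial lipids and proteins: the heterodimer of TLR2 with TLR1 or TLR6 senses lipopeptides, TLR4 with its partner MD-2 senses lipopolysaccharide, and TLR5 senses flagellin. TLR3, TLR7, TLR8, TLR9 and TLR13 sit in endosomes and sense nucleic acids. All except TLR3 signal through the adaptor MYD88, TLR3 uses TRIF (Ticam1), and TLR4 can use both. Macrophages, neutrophils and other myeloid cells carry most of these receptors, while muscle cells are known to express a smaller set.

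The sequences before the start sites of the receptors are given first. RefSeq start sites on GRCm38.p6 were found for 8 of the 10 receptors, with Tlr1 and Tlr6 having 2 starts each. Tlr4 and Tlr7 had no entry. The 250 bases before each start were searched on both strands. The core GAGGAA, also read as TTCCTC on the other strand, is the core of the sites bound by PU.1 (Spi1), the transcription factor of myeloid cells. It lay before the start of Tlr8 at position -77, of Tlr13 at -83, of Tlr9 at -112 and of the upstream start of Tlr1 at -23. Neither start of Tlr6, the other start of Tlr1, nor the starts of Tlr2, Tlr3 and Tlr5 held it, and 23.3% of 32851 promoters of the same length did. The Tlr2 window held 2 matches of the kappaB site, bound by NF-kappaB, which overlap in a single stretch shifted by 1 base, and the Tlr3 window held 1, against 7.25% of all promoters with a match. One Tlr6 start held 2 overlapping matches of the ISRE, the site of interferon regulatory factors, against 2.98% of all promoters. The MyoD E box CAGCTG was found before none of these starts and in 13% of all promoters. A match is a description of letters and does not show binding. The windows of Tlr8 (chrX:167264330-167264579, minus strand), Tlr13 (chrX:106143025-106143274, plus strand) and Tlr1 (chr5:64933559-64933808, minus strand) are printed because these receptors had the highest ratios among those with an entry, and that of Tlr2 (chr3:83841609-83841858, minus strand) as a window without the core. Of the 2 Tlr1 starts, only the one with the core is printed. The windows run 5′ to 3′ on the strand of the gene, and capitals mark the PU.1 core.
Tlr8: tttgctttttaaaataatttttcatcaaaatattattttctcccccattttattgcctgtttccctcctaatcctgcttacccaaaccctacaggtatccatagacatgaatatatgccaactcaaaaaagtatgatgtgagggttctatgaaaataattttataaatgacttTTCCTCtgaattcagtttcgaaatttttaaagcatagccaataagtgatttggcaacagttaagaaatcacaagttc
Tlr13: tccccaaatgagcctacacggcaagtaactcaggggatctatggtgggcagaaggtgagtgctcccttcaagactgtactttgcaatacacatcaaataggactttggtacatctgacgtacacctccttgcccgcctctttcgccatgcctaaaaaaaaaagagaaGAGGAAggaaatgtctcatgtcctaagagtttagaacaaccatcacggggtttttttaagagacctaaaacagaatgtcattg
Tlr1: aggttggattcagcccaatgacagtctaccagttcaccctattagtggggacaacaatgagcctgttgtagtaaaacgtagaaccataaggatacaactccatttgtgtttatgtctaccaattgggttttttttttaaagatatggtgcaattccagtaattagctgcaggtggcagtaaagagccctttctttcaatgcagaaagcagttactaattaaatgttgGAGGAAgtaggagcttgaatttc
Tlr2: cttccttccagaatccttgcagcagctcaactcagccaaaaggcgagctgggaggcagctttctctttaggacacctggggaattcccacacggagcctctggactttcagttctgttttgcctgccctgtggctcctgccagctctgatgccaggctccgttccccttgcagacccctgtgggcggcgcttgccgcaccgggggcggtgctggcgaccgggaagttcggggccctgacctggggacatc
The Tlr2 window was also the richest in CpG dinucleotides, the sites that Tet2 acts on when methylated. It held 11, against 5 for Tlr13, 1 for Tlr8, 1 for the printed Tlr1 start and a median of 6 over all promoters. The Tlr1 start that is not printed held 8, above that median.

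In WT myoblasts 4 receptors made up most of the family. Tlr4 was the highest at 5.62 FPKM, followed by Tlr6 at 3.62 FPKM, Tlr3 at 2.01 FPKM and Tlr2 at 1.21 FPKM. These 4 held 90.4% of the summed FPKM of the 10 receptors, which was 13.8. Tlr13 followed at 0.652 FPKM, and the other 5 receptors lay between 0.0647 and 0.239 FPKM. In Tet2 KO myoblasts the sum was 17.4 FPKM and the order differed. Tlr4 was again first with 5.47 FPKM, Tlr13 was second with 3.14 FPKM, and Tlr3, Tlr6 and Tlr2 followed with 2.53, 2.24 and 1.61 FPKM. The share of Tlr4, Tlr6, Tlr3 and Tlr2 in the summed FPKM was 67.9%, and that of Tlr1, Tlr7, Tlr8 and Tlr13 was 31.2% compared with 8.56% in WT.

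**Figure D1:**
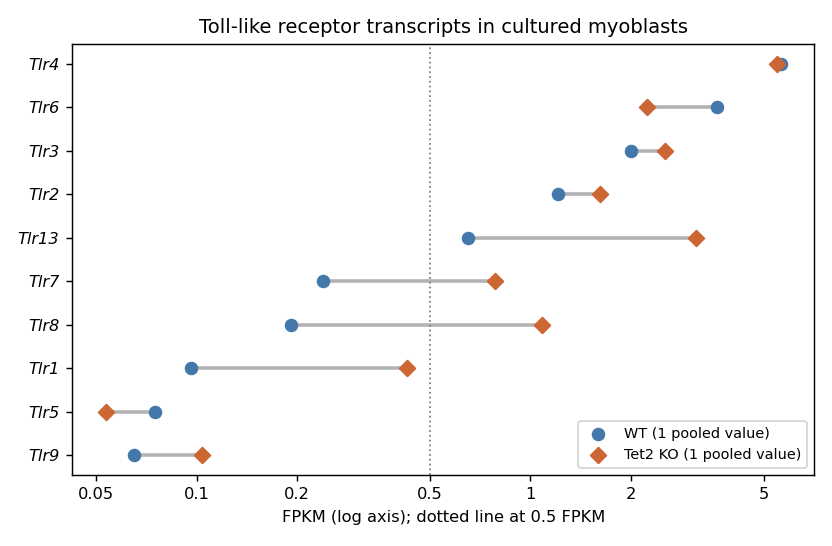
FPKM (log axis) of the 10 Toll-like receptors in WT (circles) and Tet2 KO (diamonds) myoblasts, 1 pooled value per group, ordered by the WT level, with the dotted line at 0.5 FPKM. The lines joining the values are longest for Tlr8, Tlr13, Tlr1 and Tlr7, whose Tet2 KO values are higher, while those of Tlr4 nearly coincide at 5.62 and 5.47 FPKM.

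Among the endosomal receptors for RNA, Tlr13, Tlr8 and Tlr7 had values more than 2-fold higher in Tet2 KO and Tlr3 did not. Tlr13, which senses bacterial 23S ribosomal RNA in mice, had 0.652 FPKM in WT and 3.14 FPKM in Tet2 KO, a plain ratio of 4.82 and a log2 ratio of 2.11. Tlr8, a close relative of Tlr7, had 0.192 FPKM in WT and 1.08 FPKM in Tet2 KO, a plain ratio of 5.63 and a log2 ratio of 2.02. Tlr7, a receptor for single-stranded RNA, had 0.239 FPKM in WT and 0.782 FPKM in Tet2 KO, a plain ratio of 3.28 and a log2 ratio of 1.38. Together these 3 receptors held 7.86% of the summed FPKM of the family in WT and 28.7% in Tet2 KO, and the plain ratio of their sum was 4.62. Their proportions to each other moved less. The ratio of Tlr13 to Tlr8 was 3.39 in WT and 2.90 in Tet2 KO. That of Tlr8 to Tlr7 was 0.805 in WT and 1.38 in Tet2 KO. The WT values of Tlr8 and Tlr7 rest on few fragments, so the ratios that use them are uncertain in size.

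The other endosomal receptors differed little or were close to 0. Tlr3, which binds double-stranded RNA, had 2.01 FPKM in WT and 2.53 FPKM in Tet2 KO, a log2 ratio of 0.32. Tlr9, the receptor for unmethylated CpG DNA, had 0.0647 FPKM in WT and 0.103 FPKM in Tet2 KO. At the annotated length of its transcript, 3471 bases, the latter corresponds to 0.359 fragments in 1000000. Little can therefore be said of Tlr9 in either group. By the same reckoning the WT values of Tlr1, Tlr8 and Tlr7 correspond to 0.255, 0.659 and 0.930 fragments in 1000000. The ratios of Tlr1, Tlr8 and Tlr7 divide by these small WT values and are uncertain in size.

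Among the surface receptors, Tlr4 had nearly equal values of 5.62 FPKM in WT and 5.47 FPKM in Tet2 KO, a plain ratio of 0.973. Tlr2, the shared partner of the lipopeptide receptors, had 1.21 FPKM in WT and 1.61 FPKM in Tet2 KO, a log2 ratio of 0.39. Its partners lay on opposite sides. Tlr1 had 0.0963 FPKM in WT and 0.427 FPKM in Tet2 KO, a plain ratio of 4.44 and a log2 ratio of 1.43, while Tlr6 had 3.62 FPKM in WT and 2.24 FPKM in Tet2 KO, a log2 ratio of -0.67. Tlr6 was the one member with a value more than 1.5-fold lower in Tet2 KO. The level of Tlr6 was 37.6 times that of Tlr1 in WT and 5.24 times in Tet2 KO. The WT value of Tlr1 rests on few fragments, so its ratio of 4.44 and the 37.6 are uncertain in size. Tlr5 had at most 0.0751 FPKM in either group.

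The split between Tlr1 and Tlr6 is uncertain, because these neighbouring genes share part of their sequence. They lie 19.5 kb apart on the minus strand, Tlr1 at chr5:65315919-65324797 and Tlr6 at chr5:65344334-65351273 (mm9). A stretch of 1079 bases of their transcripts was 94.8% identical, 40.7% of the Tlr1 transcript of 2652 bases and 41.4% of the Tlr6 transcript of 2603 bases, and they shared 454 exact words of 50 bases, 17.4% of those of Tlr1. Reads that fall within such shared words cannot be told apart by sequence. No further stretch of either transcript matched elsewhere in the genome with at least 90% identity over at least 100 bases. The 8 other receptors had no such stretch. Weaker likeness was not measured.

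Of the 10 receptors, 7 had a mean of at least 0.5 FPKM, and Tlr1, Tlr5 and Tlr9 did not. Of these 7, Tlr7, Tlr8 and Tlr13 were at least 2-fold higher in Tet2 KO, and 0 were at least 2-fold lower. Among all 12681 genes above that mean, 3.57% were higher and 1.98% were lower, and among the 5792 genes with a mean from 0.5 to 10 FPKM, the range of the 7 receptors, 6.66% were higher and 3.00% were lower. Tlr7 and Tlr8 reached the mean only through their Tet2 KO value, so they had to differ, and the count gives no support by itself. With at least 0.5 FPKM required in WT, 5 receptors were left and 1 of them, Tlr13, was higher. Of all 12548 genes that met this WT minimum, 312 were higher and 274 lower. With no filter, 4 of the 10 receptors were higher, Tlr1 being the addition, against 2.61% of all 24445 genes higher and 1.52% lower. Those shares include 4049 genes at 0 in both groups, which could not be called and make the shares smaller. The median log2 ratio of the 7 receptors was 0.39, beside a median of -0.0039 over all genes above the mean. Placed among the log2 ratios of those genes, Tlr13 stood at percentile 99.5, Tlr8 at 99.3, Tlr7 at 97.5, Tlr2 at 91.4, Tlr3 at 89.7, Tlr4 at 41.4 and Tlr6 at 3.67. As Tlr7 and Tlr8 passed only through Tet2 KO, their percentiles and the median of 0.39 give no support either. With at least 0.5 FPKM required in WT, the median of the receptors was 0.32.

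**Figure D2:**
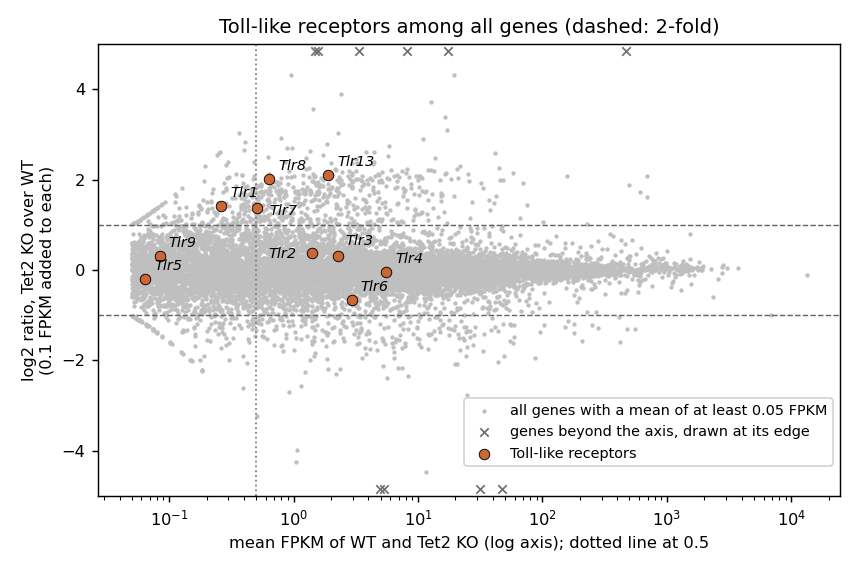
Log2 ratio of Tet2 KO over WT against the mean FPKM of the groups (log axis) for every gene with a mean of at least 0.05 FPKM (grey, crosses at the edge for those beyond the axis) and for the 10 Toll-like receptors (orange), with dashed lines at 2-fold and the dotted line at a mean of 0.5 FPKM. Tlr13 and Tlr8 lie near a log2 ratio of 2, Tlr1 and Tlr7 above the upper dashed line, and the other 6 receptors between the dashed lines, Tlr6 lowest at -0.67.

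Markers of leukocytes moved with the receptors that were higher. All 10 leukocyte markers were at least 2-fold higher in Tet2 KO, against 3.57% of all genes above the mean of 0.5 FPKM. Their log2 ratios ran from 1.06 for Cd68 to 2.21 for the macrophage gene Adgre1, and none was listed at 0. Their summed level was 112 FPKM in WT and 442 FPKM in Tet2 KO. Ptprc, the gene of the CD45 protein that the sort selected against, had 1.36 FPKM in WT and 5.67 FPKM in Tet2 KO, and Itgam, the gene of CD11b, had 2.09 FPKM in WT and 10.1 FPKM in Tet2 KO. All 8 neutrophil markers were also at least 2-fold higher, with log2 ratios from 1.10 to 2.59 and a summed level of 560 FPKM in WT and 1983 FPKM in Tet2 KO, although Csf3r passed the mean only through its Tet2 KO value. Divided by Ptprc, Tlr1 was at 0.0710 in WT and 0.0754 in Tet2 KO, Tlr8 at 0.142 and 0.191, Tlr7 at 0.176 and 0.138, and Tlr13 at 0.481 and 0.554. The same quotient was 4.14 in WT and 0.965 in Tet2 KO for Tlr4, and 2.67 and 0.395 for Tlr6. For Tlr3 it was 1.48 in WT and 0.446 in Tet2 KO, and for Tlr2 it was 0.892 and 0.285. Ptprc itself had a plain ratio of 4.18, within the range of 3.28 to 5.63 of Tlr1, Tlr7, Tlr8 and Tlr13. Division by Ptprc therefore had to bring the groups closer for these receptors. It had to set them further apart for Tlr2, Tlr3, Tlr4 and Tlr6, whose ratios ran from 0.619 to 1.33. The quotients restate the ratios and add no further evidence. The part of leukocyte or neutrophil RNA in these differences was not tested, and in bulk RNA more cells of a type and more RNA per cell cannot be told apart.

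Markers of other cell types differed less. The 6 lymphocyte markers summed to 1.01 FPKM in WT and 1.30 FPKM in Tet2 KO, with Cd3g and Ms4a1 listed at 0 in WT and Cd3e listed at 0 in Tet2 KO. The 4 dendritic cell markers summed to 2.59 FPKM in WT and 2.48 FPKM in Tet2 KO, nearly all of it Zbtb46. The 4 endothelial markers summed to 3.33 and 3.09 FPKM, and the 4 fibroblast markers to 431 and 461 FPKM, of which Ly6a, the gene of the Sca1 protein selected against, made 278 and 288 FPKM. Of these sets 1 lymphocyte, 1 dendritic cell, 2 endothelial and 3 fibroblast markers were above the mean of 0.5 FPKM, and none of those was at least 2-fold higher or lower. Lck made 0.880 FPKM of the lymphocyte sum in WT, and Cd79a, below the mean, had a plain ratio of 2.23. The fibroblast marker Pdgfra had 1.06 FPKM in WT and 1.91 FPKM in Tet2 KO, a log2 ratio of 0.79. Also below the mean, the dendritic cell marker Itgax had a plain ratio of 1.65. The endothelial marker Cdh5 and the fibroblast marker Dpt, below it too, had plain ratios of 0.695 and 0.687. The myoblast label matched its markers in both groups: Myod1 had 336 FPKM in WT and 313 FPKM in Tet2 KO, and the 6 myoblast markers had log2 ratios from -0.27 to -0.02 and sums of 1153 and 1028 FPKM.

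Several facts of the libraries touch these values. Tet2 had 6.64 FPKM in WT and 5.79 FPKM in Tet2 KO, but a value for the whole gene does not isolate the deleted exon and is no check of the knockout. The methods state male mice unless noted otherwise, whereas Xist had 59.5 FPKM in WT and 67.7 FPKM in Tet2 KO, and the Y-linked genes Ddx3y, Eif2s3y, Kdm5d and Uty were listed at 0 in both groups. The summed FPKM of all genes was 566910 in WT and 565529 in Tet2 KO.

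The 3 receptors counted as higher all lie on the X chromosome, in 2 places. Tlr1 on chromosome 5, below the mean of 0.5 FPKM and so not counted, had a log2 ratio of 1.43. Tlr8 at chrX:163679055-163702261 and Tlr7 at chrX:163742858-163768503 (mm9) are 40.6 kb apart on the minus strand, and Tlr13 lies at chrX:103338614-103355832 on the plus strand. Their flanking genes did not share the difference. Tmsb4x, the gene of thymosin beta 4 beside Tlr8, had 1709 FPKM in WT and 1576 FPKM in Tet2 KO, and Prps2 beyond Tlr7 had a log2 ratio of 0.20. Beside Tlr13, the copper transporter gene Atp7a had a log2 ratio of -0.11 and the glycolytic gene Pgk1 one of 0.07. Over the 422 X-linked genes with a mean of at least 0.5 FPKM the median log2 ratio was -0.02, with 3.08% higher and 4.27% lower. Beside Tlr1 and Tlr6, Klf3 and Fam114a1 had log2 ratios of -0.37 and -0.36. On chromosome 8, Sorbs2 and Pdlim3, which encode proteins of the muscle Z-disc and actin cytoskeleton and follow Tlr3, had log2 ratios of -1.31 and -1.22, while Tlr3 itself was at 0.32.

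**Figure D3:**
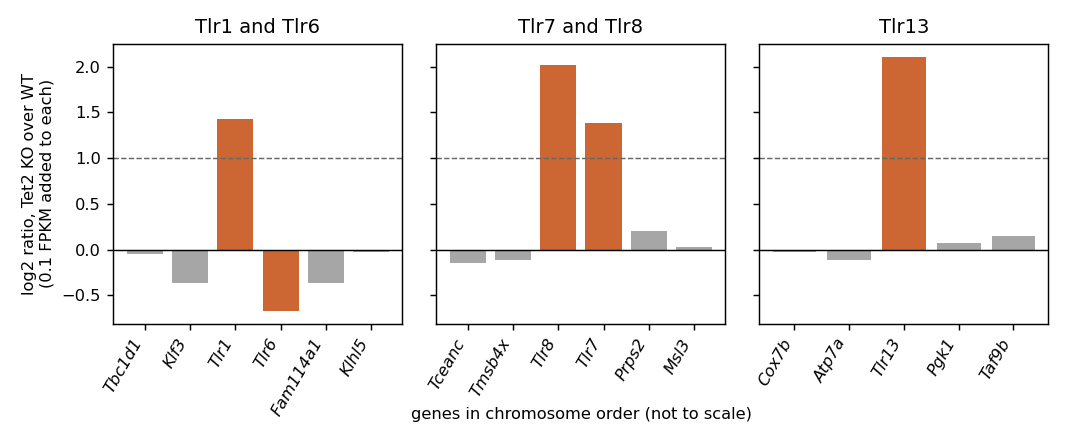
Log2 ratio of Tet2 KO over WT for Toll-like receptors (orange) and the nearest genes on each side with a mean of at least 0.5 FPKM (grey), in chromosome order and not to scale, with the dashed line at 2-fold. Tlr8, Tlr7 and Tlr13 exceed 1 while their flanking genes lie between -0.14 and 0.20.

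The remaining receptors have their own places. Tlr2 lies at chr3:83640194-83645530 and Tlr3 at chr8:46481019-46495893, both on the minus strand of mm9. Tlr4 lies at chr4:66488585-66507615, Tlr5 at chr1:184884919-184906175 and Tlr9 at chr9:106124929-106129207, all on the plus strand. In the GENCODE vM1 annotation of that build the coding sequence of Tlr1, Tlr2 and Tlr6 is a single exon, that of Tlr3 is split over 4 exons and that of Tlr4 over 3. No other annotated gene overlaps any of the 10.

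Most genes of co-receptors and ligand binding proteins had higher values in Tet2 KO. Of 6 such genes, all above the mean of 0.5 FPKM, 5 were at least 2-fold higher and 0 lower, with a median log2 ratio of 1.67, against 3.57% of all genes higher and 1.98% lower. Cd180, Ly86 and Lbp passed only through their Tet2 KO values and so had to differ. The median of 1.67 rests in part on these genes. With at least 0.5 FPKM required in WT, 3 genes were left, of which Cd14 and Cd36 were higher, against 312 of all 12548 genes. Cd14 and Cd36 had log2 ratios of 1.19 and 1.72, and Ly96, the other gene left, had 0.26. Cd14, which passes lipopolysaccharide to TLR4, had 1.61 FPKM in WT and 3.80 FPKM in Tet2 KO. Cd36, a scavenger receptor that assists TLR2 with TLR6, had 2.16 FPKM in WT and 7.35 FPKM in Tet2 KO, and the lipopolysaccharide binding protein gene Lbp had 0.201 FPKM in WT and 0.837 FPKM in Tet2 KO. Cd180 (RP105), a receptor homologue without a TIR domain, and its partner Ly86 (MD-1) had log2 ratios of 1.95 and 1.71. Ly96, which encodes MD-2, was the exception with 6.14 FPKM in WT and 7.35 FPKM in Tet2 KO, and the ratio of Tlr4 to Ly96 was 0.915 in WT and 0.744 in Tet2 KO.

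Further genes encode the machinery that brings receptors to endosomes. Of 7 chaperone and trafficking genes 1 was higher and 0 lower, with a median log2 ratio of 0.09, against 3.57% of all genes higher and 1.98% lower. Unc93b1, the escort of the endosomal receptors, had 19.6 FPKM in WT and 25.3 FPKM in Tet2 KO, and Hsp90b1, the folding chaperone gp96, had 400 and 426 FPKM. Nrros, which encodes a leucine-rich repeat protein that restrains Toll-like receptor signalling, was the gene past 2-fold, with 5.92 FPKM in Tet2 KO and a log2 ratio of 1.39. Among 5 endosomal proteases that cleave these receptors, Ctss was higher, with 18.4 FPKM in WT and 73.2 FPKM in Tet2 KO, and it is also one of the leukocyte markers above. Ctsl went the other way without reaching 2-fold, with 300 FPKM in WT and 157 FPKM in Tet2 KO, a log2 ratio of -0.93.

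The genes of the shared signalling chain were counted beside the same shares of all genes, 3.57% higher and 1.98% lower. With 0 or 1 gene called in each list, the counts are too small to be compared with these shares. Of 6 adaptors 4 were above the mean, 1 was higher and 0 were lower. Myd88 had 16.0 FPKM in WT and 17.0 FPKM in Tet2 KO, Tirap, which bridges MYD88 to the surface receptors, had a log2 ratio of 0.15, and Ticam1 one of -0.19. Pik3ap1, the adaptor BCAP that links the receptors to PI3 kinase, was the one past 2-fold, with 0.834 FPKM in WT and 3.20 FPKM in Tet2 KO. Of 19 kinase and ubiquitin enzyme genes above the mean 0 were at least 2-fold higher or lower, their median log2 ratio was 0.02, and they ranged from -0.33 for Ikbkg (NEMO) to 0.73 for Ikbke. Of 11 transcription factors 1 was higher, Irf5, which acts downstream of MYD88, with 2.15 FPKM in WT and 5.31 FPKM in Tet2 KO, and 0 were lower. The other factors ranged from -0.22 for Jun to 0.61 for Irf8, a factor of the myeloid lineage.

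Of 10 inhibitors above the mean 1 was higher and 0 lower, with a median log2 ratio of 0.28, against 3.57% of all genes higher and 1.98% lower. Il1rl1, the IL-33 receptor ST2, had 5.71 FPKM in WT and 12.4 FPKM in Tet2 KO, and Sigirr, a decoy with a TIR domain, was the lowest at -0.22. Nfkbia, the NF-kappaB inhibitor and itself an NF-kappaB target, had a log2 ratio of 0.44.

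Endogenous ligands and target genes had higher median ratios than the signalling chain. Of 9 ligand genes 4 were higher and 0 lower, with a median log2 ratio of 0.98, against 3.57% of all genes higher and 1.98% lower. The calprotectin genes S100a8 and S100a9, ligands of TLR4 and at the same time neutrophil markers above, had 285 and 213 FPKM in WT and 941 and 781 FPKM in Tet2 KO. The matrix protein gene Tnc, whose product can activate TLR4, had 151 FPKM in WT and 305 FPKM in Tet2 KO, and the serum amyloid gene Saa3 had 6.24 and 15.2 FPKM. Of 15 target genes above the mean 8 were higher and 0 lower, with a median log2 ratio of 1.04, to be read against the same shares of all genes. Ccl3 passed only through its Tet2 KO value. With at least 0.5 FPKM required in WT, 7 of 13 were higher, against 312 of all 12548 genes. The chemokine genes Ccl3 and Ccl4 had the highest log2 ratios, 2.51 and 2.16, from WT levels of 0.117 and 0.838 FPKM, followed by the siderophore binding gene Lcn2 at 2.08. The prostaglandin synthase gene Ptgs2 had 18.7 FPKM in WT and 55.1 FPKM in Tet2 KO, and Tnf had 0.699 and 2.29 FPKM. Acod1, which makes itaconate, had 5.65 FPKM in Tet2 KO and a log2 ratio of 1.85. The neutrophil chemokine gene Cxcl1 had 41.1 FPKM in WT and 90.8 FPKM in Tet2 KO, and Il6 had 11.1 and 22.8 FPKM. The lowest was Il1b, with 2.81 FPKM in WT and 2.08 FPKM in Tet2 KO, a log2 ratio of -0.42. Ifnb1, the interferon gene induced through TRIF, was listed at 0 in both groups.

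Over all these lists, 86 of 95 pathway genes were above the mean, 22 of them at least 2-fold higher and 0 lower, with a median log2 ratio of 0.16, against 3.57% of all genes higher and 1.98% lower. Of the 22, Cd180, Ly86, Lbp and Ccl3 passed only through their Tet2 KO values. With at least 0.5 FPKM required in WT, 18 of 81 were higher and 0 lower. Of all 12548 genes that met this WT minimum, 312 were higher and 274 lower. The leukocyte and neutrophil marker sums given above were also higher in Tet2 KO. S100a8 and S100a9 stand in both the ligand and the neutrophil lists. They had 941 and 781 FPKM in Tet2 KO, of a neutrophil sum of 1983 FPKM, so the sums of those lists partly compare the same genes. The part of leukocyte or neutrophil RNA in the pathway lists was not tested. Since the lists were chosen with earlier results of these data known, their counts against all genes are no independent support.

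**Figure D4:**
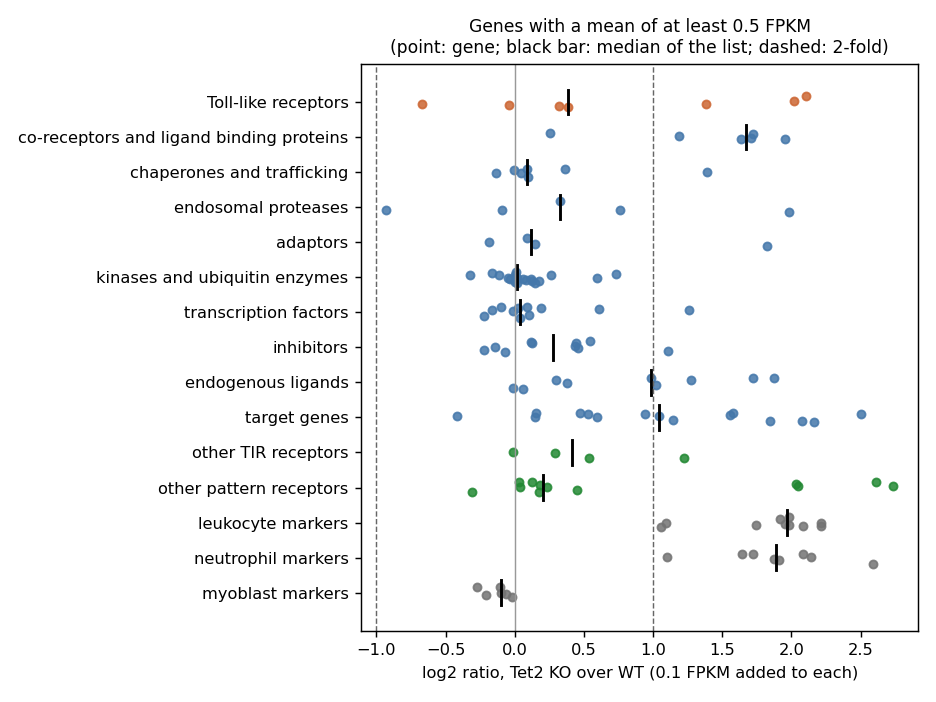
Log2 ratio of Tet2 KO over WT for each gene with a mean of at least 0.5 FPKM (points) in the Toll-like receptors (orange), the lists of their pathway (blue), other innate receptors (green) and cell type markers (grey), with black bars at list medians and dashed lines at 2-fold. The kinases cluster near 0 with a median of 0.02, and every leukocyte marker lies above 1. The co-receptors have a median of 1.67, but 3 of their 6 genes passed the mean only through the Tet2 KO value.

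Other innate receptors were set beside the family. A list of 7 further receptors with a TIR domain, of the interleukin 1 receptor family, left out Il1rl1 and Sigirr, which were counted with the inhibitors. Of the 7, 4 were above the mean and 1 was higher, Il1rl2 (the IL-36 receptor), with 0.261 FPKM in WT and 0.744 FPKM in Tet2 KO, so that it passed through its Tet2 KO value only. Their median was a log2 ratio of 0.41, beside 0.39 for the Toll-like receptors. Of 15 pattern recognition receptors of other families 12 were above the mean, 4 were higher and 0 lower, with a median of 0.21, against 3.57% of all genes higher and 1.98% lower. Those 4 were all C-type lectins, Clec7a (Dectin-1) at 2.74, Clec4d at 2.61, Clec4n at 2.05 and Clec4e at 2.03, the last of which passed through its Tet2 KO value only. Among the cytosolic sensors of RNA, Ifih1 (MDA5) was at 0.45, Dhx58 at 0.18 and Ddx58 (RIG-I) at 0.04. Nod1 and Nod2, sensors of bacterial wall fragments, were at 0.03 and 0.18, and the adaptor Mavs was lowest at -0.31. Aim2 and Nlrp3, of the inflammasomes, lay just under the mean of 0.5 FPKM, with plain ratios of 4.65 and 2.67. The log2 ratios of the Toll-like receptors above the mean ran from -0.67 to 2.11 and those of the other pattern receptors from -0.31 to 2.74, and no difference between the families was tested.

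Tlr4 had the highest mean level of the family, and the genes with the most similar pair of levels were sought by the distance of log2(FPKM + 0.1) over the 2 group values. The 5 nearest were Trp53i13 at a distance of 0.0128, Zbtb44 at 0.0169, Tead3 at 0.0173, Zfp763 at 0.0192 and Zfp707 at 0.0208. With 1 value per group, such likeness rests on 2 points only.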

How the data were processed

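RNA of WT and Tet2 KO myoblasts was sequenced in 2 libraries per group. Per the study's methods and the submitters' processing notes, the authors evaluated reads with FastQC, trimmed adapters and filtered low-quality reads with scripts of their own, aligned the read pairs to mm9 with TopHat2 2.0.13 and estimated expression with Cuffdiff 2.2.1. The annotation was not given in the sources used here, nor how libraries were combined. The deposited table holds 1 FPKM value per gene and group, so depth per library is unknown and no interval, standard deviation or test was computed. Its further columns hold the authors' own comparison (status, log2 fold change, statistic, p-value, q-value and a significance flag) and were not used. No column was left unmapped.

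Log2 ratios were computed here with 0.1 FPKM added to each group. A gene was called when at least 2-fold higher or lower, among genes with a mean of at least 0.5 FPKM. Alternatives were a pseudocount of 1 FPKM or none, other minimums, 1.5-fold and 3-fold, scaling to a sum of 1000000 (TPM) and centring on the median. The counting was tested on simulated data in which only genes with at least 1 FPKM in WT were changed. Tlr7, Tlr8 and Tlr13 lay below that WT level, so this check does not cover them.

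The members and gene lists were chosen with earlier results of these data known. Named were all 10 receptors, list members past 2-fold, the list extremes where none was, partners of a receptor, Tet2, and the 5 genes nearest to the most abundant receptor. Beyond this rule, other extremes, flanking genes and genes shown for comparison were named after their values were seen. Of 166 list genes, 3 were found under another symbol. Starts of the table had 1 added, so that coordinates count from 1. Strand, exons and transcript lengths came from GENCODE vM1 on the same build, similar stretches from BLAST+ 2.17.0 and promoters from RefSeq on GRCm38.p6. Python 3.11.15, numpy 2.4.6, pandas 2.3.3 and matplotlib 3.10.9 were used.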

Additional observations from a re-analysis of the deposited data

How the results depend on the processing

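No paired analysis was possible because the table holds 1 pooled value per group, and for the same reason no library could be left out. With a pseudocount of 1 FPKM, 1 receptor (Tlr13, log2 ratio 1.33) was at least 2-fold higher, the median of the receptors was 0.24, 14 pathway genes were higher, and 249 of all genes were higher and 143 lower. Tlr8 was then at 0.80 and Tlr7 at 0.52. Without a pseudocount the median of the receptors was 0.41, without a filter 0.35, with a mean of at least 0.1 FPKM 0.88, and on the TPM scale 0.40. With a mean of at least 1 FPKM, or at least 0.5 FPKM in WT, 1 receptor was higher and the median was 0.32, since fewer receptors are then counted. At 1.5-fold, 1 receptor (Tlr6) and 1 pathway gene (Ctsl) were lower, and 764 of all genes were higher and 550 lower. At 3-fold, 12 pathway genes were higher, and 259 of all genes were higher and 63 lower. No receptor changed direction under any scaling, and the median of all genes stayed within 0.01 of 0 in each. In the other 48 comparisons with the main setting, counts stayed within 1.5 times and medians were equal to 2 decimals. Depth is unknown, and levels under 0.5 FPKM rest on few fragments.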
